A study of Mus musculus with 12 samples.

Results

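Collagen chain genes encode the polypeptides that wind into the triple helices of the collagens, the main structural proteins of the extracellular matrix. The genes described here are those whose symbol is Col followed by a type number, the letter a and a chain number, each read through 1 probe set, the one with the highest mean over the 12 arrays. They number 44 of the 22180 genes measured. Mouse embryonic fibroblasts were either Gdap1-null (KO) or wild type (WT), and each genotype was sampled at day 4 of reprogramming and before it (day 0), which gives KO day 4, KO day 0, WT day 4 and WT day 0 with 3 arrays each. Gdap1 encodes a mitochondrial outer membrane protein, and reprogramming here was driven by transduced Oct4, Sox2, Klf4 and cMyc, factors that can turn fibroblasts into pluripotent cells. All cells were grown in DMEM with fetal bovine serum. The treatment label, common to all arrays, covers mock and factor transduction alike and does not say which the day 0 cells had. Mouse strain, embryo age, the nature of the null allele and whether arrays of a group came from separate cultures are not stated in the labels, so p-values measure only the spread between these arrays, which may be technical.

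A collagen chain is made in the endoplasmic reticulum, where prolines and lysines are hydroxylated and the HSP47 chaperone assists folding of the triple helix. Fibrillar procollagens are then exported, trimmed at their ends by proteases and cross-linked by lysyl oxidases into fibrils. Other types decorate fibrils, form the sheet of basement membranes, build beaded filaments or span the cell membrane. Fibroblasts are the main makers of types I, III, V and VI in connective tissue, and the loss of fibroblast features is an early step on the way to pluripotency.

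Levels are log2 values of probe sets and are compared between arrays only, not between genes. A change or difference is given on this log2 scale with its standard error (SE) from the model (n = 3 arrays per group), and a gene passed the test at a limma p, adjusted over all 22180 genes, under 0.05. Of the chains, 42 had a mean level at or above the 25th percentile of all genes, and the other two, Col19a1 and Col6a5, lay below it. In KO cells Gdap1 had levels of 3.21, 2.98 and 3.28 at day 4 and 3.10, 2.97 and 3.28 at day 0. In WT cells Gdap1 had 2.82, 3.02 and 3.15 at day 4 and 3.30, 3.24 and 3.04 at day 0. These levels also lie below the 25th percentile of all genes and overlap between genotypes, so this probe set does not check the genotype labels. WT day 4 array 1 stood apart, with a mean Pearson correlation of 0.987 with the other arrays of its group across genes, against 0.991 to 0.997 for the other arrays.

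The fibroblast label was checked on 7 marker genes, among them Pdgfra, Thy1, Vim and Dcn. All 7 lay above the 25th percentile. At day 4, 1 of them rose and 2 fell in KO, and 2 rose and 2 fell in WT cells. These are 42.9% of the list in KO and 57.1% in WT cells, against 30.8% and 22.9% of all genes. The mean level of the 7 markers per array was 9.85 to 10.24 in KO day 4, 10.03 to 10.05 in KO day 0, 9.87 to 10.09 in WT day 4 and 9.79 to 9.84 in WT day 0 cells. All 5 myofibroblast and smooth muscle markers (Acta2, Tagln, Cnn1, Myh11 and Actg2) fell at day 4 in both genotypes, and their mean per array was 8.0 to 8.99 in KO day 4 against 10.33 to 10.37 in KO day 0, and 7.65 to 8.83 in WT day 4 against 10.84 to 10.87 in WT day 0. Of all genes, 16.9% fell at day 4 in KO and 11.7% in WT cells. Between genotypes, 12.4% of all genes were lower in KO cells at day 4 and 3.12% at day 0. All 5 macrophage markers (Ptprc, Cd68, Adgre1, Csf1r and Itgam) were lower in KO than in WT cells at both days. Their mean per array was 5.02 to 5.05 in KO day 4 against 6.04 to 6.86 in WT day 4, and 4.97 to 5.04 in KO day 0 against 6.29 to 6.37 in WT day 0. No gene of these 3 lists had a mean below the 25th percentile. The part of these cells in the results on collagen chains was not tested. In these bulk samples, fewer cells of a type and less RNA per cell cannot be told apart.

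At day 4 most collagen chains that changed were lower, in KO and in WT cells. In KO cells 17 of the 44 chains passed (38.6%, against 30.8% of all genes), of which 14 fell and 3 rose, where 16.9% of all genes fell and 13.8% rose. In WT cells 22 chains passed (50%, against 22.9% of all genes), of which 19 fell and 3 rose, where 11.7% of all genes fell and 11.1% rose. The median change of the 44 chains was -0.11 in KO and -0.25 in WT cells, beside -0.01 for all genes in each genotype. Both genotypes shared falls of 13 chains, a pattern seen in 8.11% of all genes: Col1a1, Col1a2, Col5a1, Col5a2, Col5a3, Col27a1, Col4a1, Col6a2, Col6a3, Col12a1, Col10a1, Col18a1 and Col7a1. Col28a1 alone rose in both, as did 7.43% of all genes. With a minimum of a 2-fold change, 3 chains remained in KO (Col5a3, Col7a1 and Col28a1) and 5 in WT cells (Col5a2, Col5a3, Col12a1, Col10a1 and Col7a1). Of all genes, 3.76% in KO and 3.51% in WT cells passed with that minimum.

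**Figure D1:**
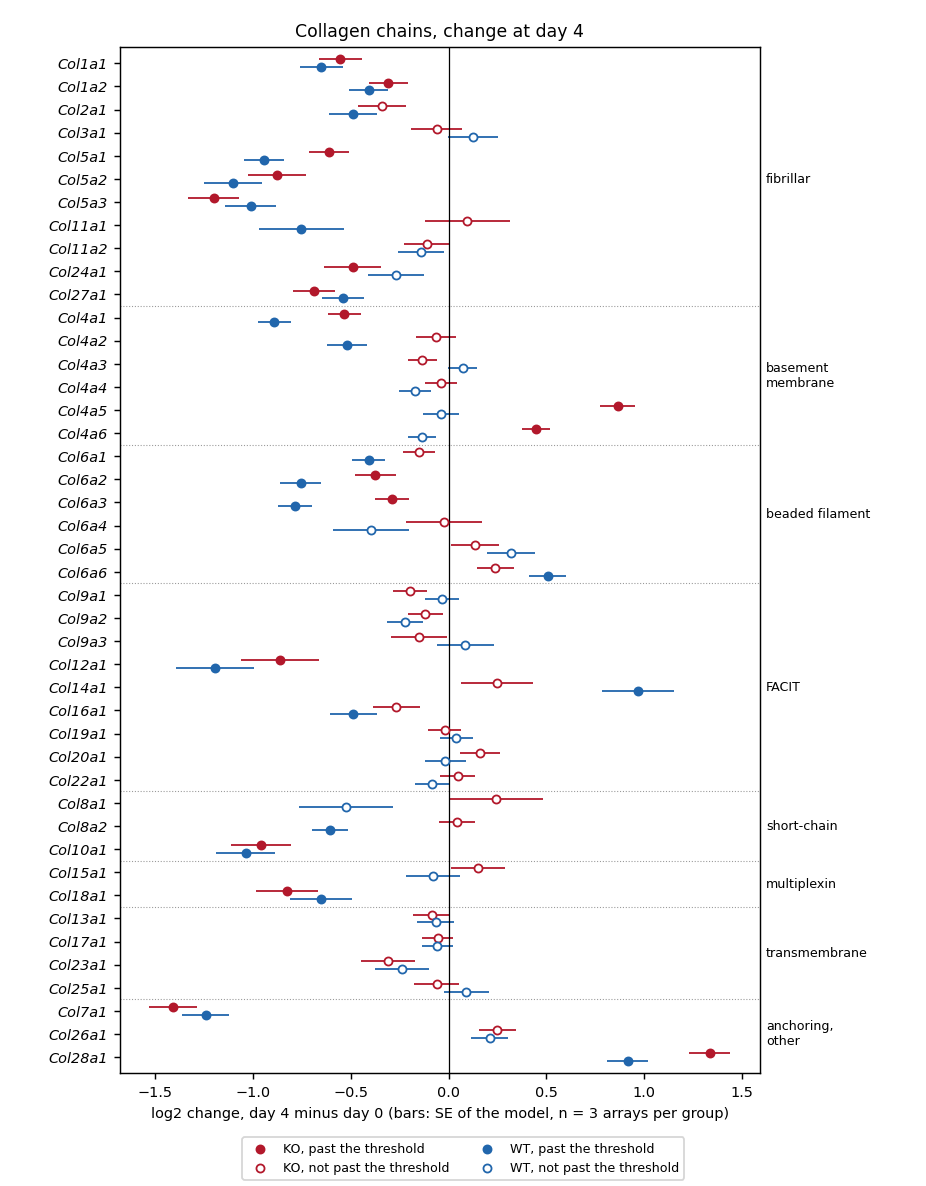
Change of each of the 44 collagen chains at day 4 (x axis: log2 level at day 4 minus day 0), grouped by class down the page, for KO (red, upper point) and WT cells (blue, lower point). Bars are the SE of the model with 3 arrays per group, filled points passed the test and open points did not. Most filled points lie left of 0 in both genotypes, Col7a1 lies farthest left at -1.41 in KO and -1.24 in WT cells, and Col4a5 and Col4a6 have filled points to the right in KO cells alone.

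Among the 11 fibrillar chains, which form the cross-striated fibrils of skin, bone, tendon and cartilage, 7 fell in KO (63.6%, against 16.9% of all genes) and 8 in WT cells (72.7%, against 11.7% of all genes), with median changes of -0.49 in KO and -0.54 in WT cells. Type I collagen, the major fibril protein, is a trimer of Col1a1 and Col1a2 chains. Col1a1 averaged 11.26 ± 0.16 in KO day 4 against 11.81 ± 0.10 in KO day 0 and 11.30 ± 0.21 in WT day 4 against 11.95 ± 0.02 in WT day 0 cells (SD, n = 3). It fell by 0.55 ± 0.11 (adjusted p = 0.00192) in KO and by 0.65 ± 0.11 (adjusted p = 0.000827) in WT cells. Col1a2 averaged 10.76 ± 0.09 in KO day 4 against 11.07 ± 0.06 in KO day 0 and 10.90 ± 0.22 in WT day 4 against 11.31 ± 0.02 in WT day 0 cells (SD, n = 3), a fall of 0.31 ± 0.10 (adjusted p = 0.0328) in KO and 0.41 ± 0.10 (adjusted p = 0.00957) in WT cells. The Col1a2 result is the less settled of the pair. In KO cells it did not pass when KO day 4 array 1 or 3 or KO day 0 array 1, 2 or 3 was left out, with quantile normalization, with the average of probe sets, and with all probe sets tested (adjusted p between 0.0543 and 0.308), and in WT cells it did not pass with the average of probe sets (adjusted p = 0.128). A second Col1a2 probe set, with a mean level of 7.70, changed by -0.02 ± 0.16 in KO (adjusted p = 0.954) and -0.11 ± 0.16 in WT cells (adjusted p = 0.766, all probe sets tested). At day 0 Col1a2 differed by -0.24 between genotypes (KO minus WT), which passed only in a fit to the compared groups alone (adjusted p = 0.0439). The second probe set differed by 0.23 ± 0.16 at day 0 (adjusted p = 0.621, all probe sets tested).

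Type V chains, which join type I in mixed fibrils and limit their width, all fell at day 4. In KO cells Col5a1 had levels of 8.60, 8.90 and 8.60 at day 4 and 9.41, 9.23 and 9.30 at day 0. In WT cells Col5a1 had 8.65, 8.91 and 8.62 at day 4 and 9.68, 9.64 and 9.69 at day 0. All day 4 arrays of either genotype lay below all day 0 arrays, and the changes were -0.61 ± 0.10 in KO (adjusted p = 0.000522) and -0.94 ± 0.10 in WT cells (adjusted p = 2.66e-05). A second Col5a1 probe set also fell, by 0.45 ± 0.08 in KO (adjusted p = 0.00206) and by 0.43 ± 0.08 in WT cells (adjusted p = 0.00384, all probe sets tested). In KO cells Col5a2 had levels of 8.08, 8.63 and 8.03 at day 4 and 9.11, 9.08 and 9.19 at day 0. In WT cells Col5a2 had 7.95, 8.36 and 7.91 at day 4 and 9.18, 9.18 and 9.17 at day 0. Array 2 was the highest of the 3 day 4 arrays in each genotype, yet below every day 0 array, and Col5a2 fell by 0.88 ± 0.15 (adjusted p = 0.000618) in KO and by 1.10 ± 0.15 (adjusted p = 0.000152) in WT cells. In KO cells Col5a3 had levels of 5.40, 5.90 and 5.91 at day 4 and 7.02, 6.90 and 6.89 at day 0. In WT cells Col5a3 had 6.09, 6.0 and 5.80 at day 4 and 7.0, 7.06 and 6.86 at day 0. The day 4 arrays again lay clear of the day 0 arrays, and Col5a3 fell 2.3-fold in KO (-1.20 ± 0.13, adjusted p = 2.25e-05) and 2.02-fold in WT cells (-1.01 ± 0.13, adjusted p = 0.000102). The difference of these changes between genotypes did not pass for any of the 3 type V chains (0.33, 0.22 and -0.19, KO minus WT, with adjusted p = 0.229, 0.63 and 0.643). At day 0 all KO arrays of Col5a1 lay below all WT arrays, by 0.36, not past the main test. It passed without KO day 4 array 2 or WT day 4 array 1 or 2, without the genes of low level, with a trended robust prior, with array weights and in a fit to the compared groups alone (adjusted p between 0.00973 and 0.0486). The second Col5a1 probe set differed by -0.10 ± 0.08 at day 0 (adjusted p = 0.696, all probe sets tested).

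**Figure D2:**
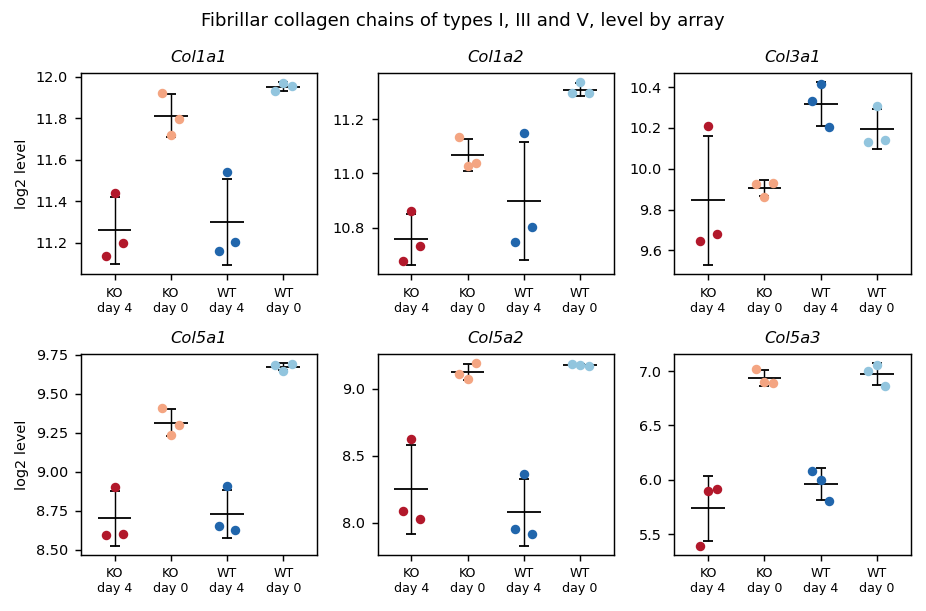
Log2 level (y axis, a separate range per panel) of the type I, III and V chains in each array, for KO day 4, KO day 0, WT day 4 and WT day 0. Points are arrays, horizontal lines group means and bars SD (n = 3). Col1a1, Col1a2, Col5a1, Col5a2 and Col5a3 are lower at day 4 in both genotypes. The mean of Col3a1 is lower in KO than in WT cells at both days, with 1 KO day 4 array, at 10.21, reaching the WT range.

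Col3a1 forms the homotrimer of type III collagen in skin and vessels. In KO cells Col3a1 had levels of 9.64, 10.21 and 9.68 at day 4 and 9.93, 9.86 and 9.93 at day 0. In WT cells Col3a1 had 10.33, 10.42 and 10.20 at day 4 and 10.13, 10.31 and 10.14 at day 0. Its day 4 changes were -0.06 ± 0.13 (adjusted p = 0.771) in KO and 0.12 ± 0.13 (adjusted p = 0.581) in WT cells, neither past the test. At day 4 it was lower in KO than in WT cells by 0.47 ± 0.13 (adjusted p = 0.0214), although KO array 2 lay at the lowest WT array, and this call was lost when KO day 4 array 1 or 3 or WT day 4 array 2 was left out and in a fit to the compared groups alone (adjusted p between 0.0763 and 0.104). At day 0 all KO arrays of Col3a1 lay below all WT arrays. That difference, -0.29, did not pass in the main fit but passed in a fit to the compared groups alone (adjusted p = 0.0357). Col27a1 is a chain of cartilage fibrils. In KO cells Col27a1 had levels of 5.86, 6.02 and 5.63 at day 4 and 6.50, 6.55 and 6.52 at day 0. In WT cells Col27a1 had 6.03, 6.14 and 6.09 at day 4 and 6.67, 6.78 and 6.42 at day 0. It was lower in every day 4 array than in any day 0 array and fell by 0.69 ± 0.11 (adjusted p = 0.000344) in KO and by 0.54 ± 0.11 (adjusted p = 0.00263) in WT cells.

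The cartilage chain Col2a1, of type II collagen, was lower in KO cells at both days. In KO cells Col2a1 had levels of 5.76, 5.68 and 6.05 at day 4 and 6.17, 6.09 and 6.25 at day 0. In WT cells Col2a1 had 6.12, 6.13 and 6.51 at day 4 and 6.70, 6.87 and 6.65 at day 0. The KO arrays lay below the WT arrays of the same day, by 0.42 ± 0.12 (adjusted p = 0.0276) at day 4 and by 0.57 ± 0.12 (adjusted p = 0.0141) at day 0. The day 4 call was lost when KO day 4 array 1 or 2 or WT day 4 array 3 was left out, with all probe sets tested and in a fit to the compared groups alone (adjusted p between 0.0516 and 0.117), and the day 0 call when KO day 0 array 1 or 2 or WT day 0 array 2 was left out (adjusted p between 0.0536 and 0.0723). Over time Col2a1 fell by 0.49 ± 0.12 (adjusted p = 0.0106) in WT cells, a call lost when WT day 0 array 2 was left out (adjusted p = 0.0526). In KO cells the change was -0.34 ± 0.12 and sat at the threshold, with adjusted p = 0.0501, and it passed when KO day 4 array 3 or WT day 4 array 1 or 3 was left out, without the genes of low level, with quantile normalization, with arrays centred on their medians, with the average of probe sets, with a trended robust prior, with array weights, in a fit to the compared groups alone, and with the replicate number as a block (adjusted p between 0.0178 and 0.0498).

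Col11a1 and Col11a2 combine with a Col2a1-derived chain in type XI collagen of cartilage. In KO cells Col11a1 had levels of 7.27, 7.40 and 7.16 at day 4 and 7.09, 7.20 and 7.26 at day 0. In WT cells Col11a1 had 6.46, 7.69 and 7.25 at day 4 and 7.89, 7.84 and 7.93 at day 0. The 3 WT day 4 arrays were spread over more than a unit, with array 1 the lowest of all 12. Col11a1 fell by 0.75 ± 0.22 (adjusted p = 0.0233) in WT cells, a call lost when WT day 0 array 1, 2 or 3 was left out and in a fit to the compared groups alone (adjusted p between 0.0576 and 0.0866), and changed by 0.10 ± 0.22 (adjusted p = 0.79) in KO cells. With WT day 4 array 1 left out, the fall in WT cells was smaller, with a change of -0.42 (adjusted p = 0.024). The difference of changes was 0.85 ± 0.31 (adjusted p = 0.146), and it passed when WT day 4 array 2 was left out (adjusted p = 0.0244). At day 0 the difference between genotypes was -0.70 ± 0.22 (adjusted p = 0.0899), and it passed when WT day 4 array 1 or 2 was left out, with array weights and in a fit to the compared groups alone (adjusted p between 0.000219 and 0.0185). In KO cells Col11a2 had levels of 5.05, 4.77 and 5.17 at day 4 and 5.08, 5.10 and 5.13 at day 0. In WT cells Col11a2 had 5.07, 5.03 and 5.0 at day 4 and 5.19, 5.40 and 4.93 at day 0. These arrays overlapped in all 4 groups, and no comparison of Col11a2 passed (adjusted p from 0.48 to 0.95).

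Col24a1, a fibrillar chain found in developing bone and eye, was the fibrillar chain that was higher in KO cells. In KO cells Col24a1 had levels of 6.08, 6.24 and 5.95 at day 4 and 6.50, 6.45 and 6.80 at day 0. In WT cells Col24a1 had 5.90, 5.48 and 5.34 at day 4 and 5.84, 5.98 and 5.69 at day 0. All KO arrays lay above the WT arrays of the same day, with a difference of 0.52 ± 0.14 (adjusted p = 0.0231) at day 4. At day 0 the difference was 0.74 ± 0.14 (adjusted p = 0.00824). Col24a1 fell by 0.49 ± 0.14 (adjusted p = 0.0206) in KO cells, while its change in WT cells was -0.27 ± 0.14 (adjusted p = 0.231), and the difference of changes was -0.22 ± 0.20 (adjusted p = 0.621). The KO fall was lost when KO day 4 array 1 or 3 or KO day 0 array 3 was left out (adjusted p between 0.0547 and 0.0949), and the WT change passed when WT day 4 array 1 was left out (adjusted p = 0.0272). The day 4 difference between genotypes was lost when KO day 4 array 1 or 2 or WT day 4 array 2 or 3 was left out and in a fit to the compared groups alone (adjusted p between 0.0558 and 0.103).

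Type IV collagens form the network of basement membranes, and their 6 chains are encoded by pairs of neighbouring genes that are read in opposite directions from starts near each other. Col4a1 and Col4a2 fell at day 4 in WT cells and were lower in KO than in WT cells at day 0, while Col4a5 and Col4a6 were higher in KO than in WT cells at day 4. The windows from 250 bases before to 50 after the start of these 4 genes are shown because the members of each pair share this region or lie close to each other. They come from RefSeq on mouse build GRCm38.p6, each read 5′ to 3′ on the strand of its gene: Col4a1 at chr8:11312777-11313076 (minus strand), Col4a2 at chr8:11312555-11312854 (plus strand), Col4a5 at chrX:141475169-141475468 (plus strand) and Col4a6 at chrX:141474027-141474326 (minus strand). For Col4a1 and Col4a2, capitals mark the 78 bases that both windows hold, on opposite strands, and for Col4a5 and Col4a6 they mark the motifs CCAAT or GGGCGG on either strand.
Col4a1: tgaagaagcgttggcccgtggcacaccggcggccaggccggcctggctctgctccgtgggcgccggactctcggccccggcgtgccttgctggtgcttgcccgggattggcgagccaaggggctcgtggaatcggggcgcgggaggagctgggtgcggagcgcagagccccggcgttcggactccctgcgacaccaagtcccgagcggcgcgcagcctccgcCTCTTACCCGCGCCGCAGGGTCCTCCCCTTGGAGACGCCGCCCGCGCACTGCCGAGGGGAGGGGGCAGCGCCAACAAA
Col4a2: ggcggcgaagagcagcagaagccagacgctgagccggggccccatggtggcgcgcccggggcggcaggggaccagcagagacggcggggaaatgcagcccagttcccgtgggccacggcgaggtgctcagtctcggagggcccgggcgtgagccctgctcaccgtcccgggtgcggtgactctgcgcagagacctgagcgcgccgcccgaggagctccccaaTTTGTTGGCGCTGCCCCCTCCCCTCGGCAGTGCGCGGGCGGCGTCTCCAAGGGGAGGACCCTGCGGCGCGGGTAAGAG
Col4a5: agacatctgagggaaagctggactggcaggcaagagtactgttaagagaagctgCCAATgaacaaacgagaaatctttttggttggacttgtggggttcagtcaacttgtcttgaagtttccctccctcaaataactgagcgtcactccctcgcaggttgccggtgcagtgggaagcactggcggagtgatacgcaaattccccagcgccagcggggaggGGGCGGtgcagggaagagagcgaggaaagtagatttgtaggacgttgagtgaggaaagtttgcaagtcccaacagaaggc
Col4a6: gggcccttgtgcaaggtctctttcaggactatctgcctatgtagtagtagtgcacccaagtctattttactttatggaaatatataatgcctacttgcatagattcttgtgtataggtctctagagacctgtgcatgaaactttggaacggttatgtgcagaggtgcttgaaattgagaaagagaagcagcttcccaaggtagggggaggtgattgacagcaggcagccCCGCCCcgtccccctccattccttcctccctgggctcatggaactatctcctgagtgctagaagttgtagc

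The annotated starts of Col4a1 and Col4a2 lie 21 bases apart on chromosome 8, and those of Col4a5 and Col4a6 lie 1343 bases apart on the X chromosome. The plus-strand start of Col4a2 is at 11312805 and the minus-strand start of Col4a1 at 11312826, so these annotated transcripts overlap at their starts. RefSeq windows were matched for 35 of the 44 chains, 38 windows in all, and searched on both strands. GGGCGG, the core letters of the GC box, was present in 60.5% of these windows, against 35.7% of 32851 windows of all genes. CCAAT was present in 34.2%, against 37.4% of all windows, TATAAA in 13.2%, against 13.6%, and TGANTCA, the letters of the AP-1 site, in 2.63%, against 7.81%. No motif is contained in another, and a match describes the window only.

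Col4a1 and Col4a2 make the common heterotrimer of basement membranes in nearly all tissues. In KO cells Col4a1 had levels of 7.64, 7.73 and 7.60 at day 4 and 8.21, 8.15 and 8.21 at day 0. In WT cells Col4a1 had 8.01, 7.84 and 7.75 at day 4 and 8.66, 8.86 and 8.75 at day 0. Within each genotype all day 4 arrays were lower than all day 0 arrays, and the highest arrays were the 3 of WT day 0. Col4a1 fell by 0.53 ± 0.08 (adjusted p = 0.000366) in KO and by 0.89 ± 0.08 (adjusted p = 1e-05) in WT cells, and at day 0 it was lower in KO than in WT cells by 0.57 ± 0.08 (adjusted p = 0.00143). At day 4 the difference between genotypes was -0.21 ± 0.08 (adjusted p = 0.0996). In KO cells Col4a2 had levels of 8.09, 7.99 and 7.91 at day 4 and 8.17, 7.99 and 8.01 at day 0. In WT cells Col4a2 had 8.31, 8.09 and 7.90 at day 4 and 8.60, 8.62 and 8.64 at day 0. The WT day 0 arrays lay above all others, and the other 3 groups overlapped. Col4a2 fell by 0.52 ± 0.10 (adjusted p = 0.00213) in WT cells, changed by -0.06 ± 0.10 (adjusted p = 0.69) in KO cells, and was lower in KO than in WT cells at day 0 by 0.56 ± 0.10 (adjusted p = 0.00477). The difference of day 4 changes was 0.36 ± 0.12 (adjusted p = 0.119) for Col4a1 and 0.46 ± 0.14 (adjusted p = 0.0958) for Col4a2. Neither passed with all arrays, but both did without WT day 4 array 1 (adjusted p = 0.0335 for Col4a1 and 0.0142 for Col4a2), and Col4a2 also with array weights (adjusted p = 0.0298).

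Col4a5 and Col4a6 encode chains of the basement membranes of kidney, smooth muscle and skin, and Col4a5 is the gene most often altered in Alport syndrome in humans. In KO cells Col4a5 had levels of 6.90, 6.58 and 6.71 at day 4 and 5.88, 5.83 and 5.89 at day 0. In WT cells Col4a5 had 5.98, 6.05 and 5.92 at day 4 and 5.96, 5.96 and 6.15 at day 0. The 3 KO day 4 arrays lay above all other arrays, and the remaining 3 groups lay close together. Col4a5 rose 1.82-fold in KO cells (0.86 ± 0.09, adjusted p = 1.79e-05) and changed by -0.04 ± 0.09 (adjusted p = 0.828) in WT cells. It was higher in KO than in WT cells at day 4 by 0.74 ± 0.09 (adjusted p = 0.000214), whereas the day 0 difference was -0.16 ± 0.09 (adjusted p = 0.428). In KO cells Col4a6 had levels of 5.56, 5.42 and 5.59 at day 4 and 5.09, 5.11 and 5.04 at day 0. In WT cells Col4a6 had 4.99, 5.0 and 5.10 at day 4 and 5.17, 5.20 and 5.13 at day 0. Its KO day 4 arrays too lay above every other array. Col4a6 rose 1.36-fold in KO cells (0.45 ± 0.07, adjusted p = 0.000444), beside -0.14 ± 0.07 (adjusted p = 0.221) in WT cells, and was higher in KO than in WT cells at day 4 by 0.50 ± 0.07 (adjusted p = 0.000598). The day 4 changes differed between genotypes for both genes, by 0.90 ± 0.13 (adjusted p = 0.00336) for Col4a5 and 0.58 ± 0.10 (adjusted p = 0.00931) for Col4a6, KO minus WT. These calls held under every alternative tried for both genes except a minimum of a 2-fold change.

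Col4a3 and Col4a4 trimerise with Col4a5 in the glomerular basement membrane. In KO cells Col4a3 had levels of 3.83, 3.80 and 3.85 at day 4 and 3.95, 4.03 and 3.90 at day 0. In WT cells Col4a3 had 4.03, 3.86 and 3.98 at day 4 and 3.93, 3.89 and 3.85 at day 0. In KO cells Col4a4 had levels of 4.12, 4.10 and 4.07 at day 4 and 4.15, 4.15 and 4.12 at day 0. In WT cells Col4a4 had 4.13, 4.21 and 3.97 at day 4 and 4.20, 4.41 and 4.22 at day 0. Both genes varied by less than 0.5 over all arrays, and no comparison of either passed, with adjusted p of 0.193 and 0.769 in KO and 0.569 and 0.166 in WT cells over time.

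**Figure D3:**
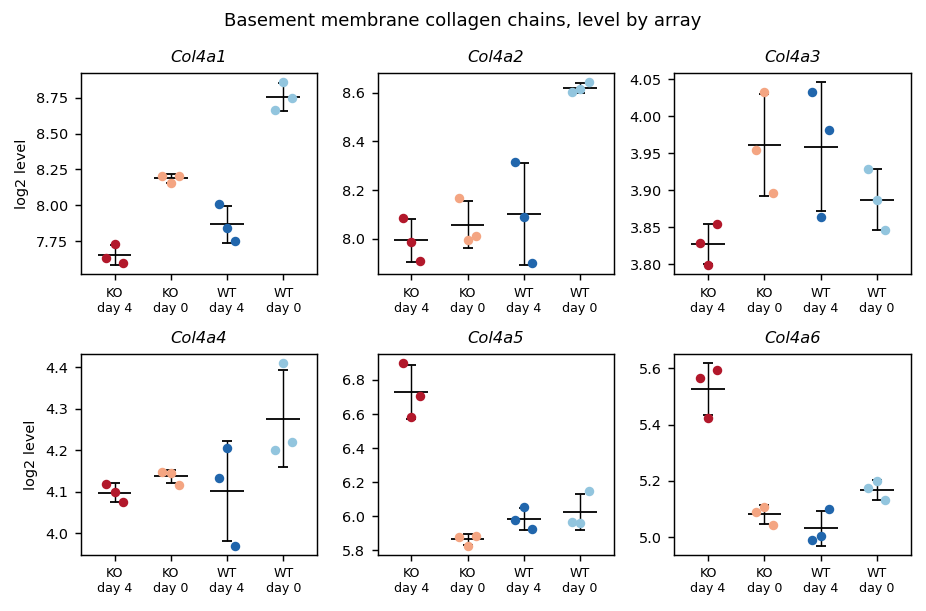
Log2 level (y axis, a separate range per panel) of the 6 basement membrane chains in each array, for KO day 4, KO day 0, WT day 4 and WT day 0. Points are arrays, horizontal lines group means and bars SD (n = 3). The KO day 4 points of Col4a5, 6.58 to 6.90, and Col4a6, 5.42 to 5.59, stand above all others, and the WT day 0 points of Col4a1 and Col4a2 stand above all others.

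Type VI collagen forms beaded filaments around cells from Col6a1, Col6a2 and a further chain, mostly Col6a3 or, in some tissues, the related Col6a4, Col6a5 or Col6a6. Of these 6 genes, 2 fell in KO cells, and 3 fell and 1 rose in WT cells, with medians of -0.09 in KO and -0.40 in WT. These are 33.3% of the class in KO cells, close to the 30.8% of all genes that passed there, and 66.7% in WT cells, against 22.9% of all genes. In KO cells Col6a1 had levels of 10.21, 10.34 and 10.18 at day 4 and 10.43, 10.36 and 10.40 at day 0. In WT cells Col6a1 had 10.38, 10.29 and 10.14 at day 4 and 10.60, 10.70 and 10.74 at day 0. The WT day 0 arrays were the highest, and Col6a1 fell by 0.41 ± 0.08 (adjusted p = 0.00264) in WT cells, beside -0.15 ± 0.08 (adjusted p = 0.192) in KO cells, with a difference of changes of 0.26 ± 0.12 (adjusted p = 0.248). A second Col6a1 probe set changed by -0.26 ± 0.16 in KO (adjusted p = 0.288) and -0.35 ± 0.16 in WT cells (adjusted p = 0.201, all probe sets tested). The day 0 difference between genotypes was -0.28 ± 0.08 (adjusted p = 0.071), and it passed when WT day 4 array 1 was left out, with a trended robust prior, with array weights, and in a fit to the compared groups alone (adjusted p between 0.0165 and 0.0388).

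In KO cells Col6a2 had levels of 8.99, 9.15 and 8.87 at day 4 and 9.38, 9.35 and 9.41 at day 0. In WT cells Col6a2 had 9.07, 9.20 and 8.79 at day 4 and 9.72, 9.84 and 9.78 at day 0. Day 4 arrays were lower than day 0 arrays in each genotype, and WT day 0 was again the highest group. Col6a2 fell by 0.37 ± 0.10 (adjusted p = 0.0153) in KO and by 0.76 ± 0.10 (adjusted p = 0.000176) in WT cells. The KO fall was lost when KO day 4 array 3 or KO day 0 array 3 was left out (adjusted p between 0.0514 and 0.0664). At day 0 Col6a2 was lower in KO than in WT cells by 0.40 ± 0.10 (adjusted p = 0.0421), a call lost when KO day 4 array 1, KO day 0 array 1, 2 or 3, or WT day 0 array 1, 2 or 3 was left out, with quantile normalization, with arrays centred on their medians, and with all probe sets tested (adjusted p between 0.0506 and 0.148).

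In KO cells Col6a3 had levels of 9.52, 9.74 and 9.58 at day 4 and 9.94, 9.86 and 9.91 at day 0. In WT cells Col6a3 had 9.53, 9.74 and 9.46 at day 4 and 10.37, 10.37 and 10.34 at day 0. The 2 genotypes overlapped at day 4, while at day 0 all KO arrays lay below all WT arrays. Col6a3 fell by 0.29 ± 0.09 (adjusted p = 0.0223) in KO and by 0.78 ± 0.09 (adjusted p = 3.24e-05) in WT cells, and at day 0 it was lower in KO cells by 0.46 ± 0.09 (adjusted p = 0.00724). The KO fall was lost when KO day 4 array 1 or 3 or KO day 0 array 1 or 3 was left out and with quantile normalization (adjusted p between 0.0619 and 0.111). The difference of changes was 0.49 ± 0.12 (adjusted p = 0.043), and this call was lost when KO day 4 array 1, 2 or 3, KO day 0 array 1, 2 or 3, WT day 4 array 3, or WT day 0 array 1, 2 or 3 was left out, with arrays centred on their medians, with all probe sets tested, and with the replicate number as a block (adjusted p between 0.0509 and 0.103).

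Col6a6 rose at day 4 in WT cells. In KO cells Col6a6 had levels of 5.18, 5.10 and 5.09 at day 4 and 5.01, 4.80 and 4.84 at day 0. In WT cells Col6a6 had 5.42, 5.61 and 5.76 at day 4 and 5.07, 5.16 and 5.04 at day 0. The WT day 4 arrays were the highest of the 4 groups, and Col6a6 rose by 0.51 ± 0.10 in WT cells (adjusted p = 0.0017), beside 0.24 ± 0.10 (adjusted p = 0.0756) in KO cells. At day 4 it was lower in KO than in WT cells by 0.47 ± 0.10 (adjusted p = 0.00418), and the difference of changes was -0.27 ± 0.13 (adjusted p = 0.307). The KO change of Col6a6 passed when WT day 4 array 1 was left out (adjusted p = 0.0363). For Col6a4 and Col6a5 the changes were -0.02 ± 0.19 (adjusted p = 0.95) and 0.13 ± 0.12 (adjusted p = 0.458) in KO, and -0.40 ± 0.19 (adjusted p = 0.185) and 0.32 ± 0.12 (adjusted p = 0.085) in WT cells. The WT change passed when WT day 4 array 1 was left out and with array weights (adjusted p between 0.0191 and 0.0407) for Col6a4 and when WT day 4 array 2 was left out (adjusted p = 0.0159) for Col6a5.

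The 9 fibril-associated chains (FACIT collagens) bind to the surface of fibrils. One fell in KO, and 2 fell and 1 rose in WT cells. The share that passed was 11.1% in KO cells, below the 30.8% of all genes, and 33.3% in WT cells, against 22.9% of all genes. Col12a1 belongs to dense connective tissue and tendon. In KO cells Col12a1 had levels of 10.43, 10.83 and 10.32 at day 4 and 11.40, 11.35 and 11.42 at day 0. In WT cells Col12a1 had 9.72, 10.73 and 10.07 at day 4 and 11.35, 11.29 and 11.45 at day 0. The day 4 arrays lay below all day 0 arrays in both genotypes, and Col12a1 fell 1.82-fold in KO (-0.86 ± 0.20, adjusted p = 0.00525) and 2.29-fold in WT cells (-1.19 ± 0.20, adjusted p = 0.000774). The day 4 difference between genotypes was 0.35 ± 0.20 (adjusted p = 0.244), and it passed when WT day 4 array 2 was left out (adjusted p = 0.0137). Col16a1 associates with fibrils in skin. In KO cells Col16a1 had levels of 6.40, 6.42 and 6.08 at day 4 and 6.52, 6.63 and 6.55 at day 0. In WT cells Col16a1 had 6.19, 6.25 and 5.86 at day 4 and 6.52, 6.74 and 6.50 at day 0. It fell by 0.49 ± 0.12 (adjusted p = 0.0104) in WT cells, a call lost when WT day 0 array 2 was left out (adjusted p = 0.0534), beside -0.27 ± 0.12 (adjusted p = 0.117) in KO cells, where it passed with the replicate number as a block (adjusted p = 0.0499).

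Col14a1, whose protein regulates fibril growth, was the chain that differed most between the genotypes. In KO cells Col14a1 had levels of 4.91, 5.32 and 5.29 at day 4 and 5.07, 4.85 and 4.87 at day 0. In WT cells Col14a1 had 6.35, 7.17 and 7.16 at day 4 and 5.90, 6.0 and 5.87 at day 0. At both days every KO array lay below every WT array. Col14a1 was lower in KO than in WT cells 3.29-fold at day 4 (-1.72 ± 0.19, adjusted p = 0.000114) and 1.996-fold at day 0 (-1.0 ± 0.19, adjusted p = 0.00622). It rose by 0.97 ± 0.19 in WT cells (adjusted p = 0.00199), where array 1 was the lowest of the 3 day 4 arrays, and changed by 0.25 ± 0.19 (adjusted p = 0.357) in KO cells. The difference of changes was -0.72 ± 0.26 (adjusted p = 0.15), and it passed when WT day 4 array 1 was left out and with array weights (adjusted p between 0.00323 and 0.0164). The other 6 chains of this class, Col9a1, Col9a2, Col9a3, Col19a1, Col20a1 and Col22a1, had changes between -0.20 and 0.16 in KO and between -0.22 and 0.09 in WT cells. Their adjusted p-values were 0.104 or above in KO and 0.101 or above in WT cells. Col20a1 passed in KO cells when KO day 4 array 2 was left out (adjusted p = 0.0403), Col9a1 in KO cells with arrays centred on their medians (adjusted p = 0.0318), and Col9a2 in WT cells when WT day 4 array 1 was left out, with quantile normalization, with arrays centred on their medians, and with array weights (adjusted p between 0.0299 and 0.0451).

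Short-chain collagens form hexagonal networks: type VIII, of Col8a1 and Col8a2, in Descemet's membrane and vessel walls, and type X, of Col10a1, in hypertrophic cartilage. In KO cells Col8a2 had levels of 4.72, 4.87 and 4.69 at day 4 and 4.80, 4.81 and 4.54 at day 0. In WT cells Col8a2 had 4.43, 4.66 and 4.57 at day 4 and 5.13, 5.16 and 5.20 at day 0. The WT day 0 arrays lay above all others and the WT day 4 arrays below all day 0 arrays of WT. Col8a2 fell by 0.61 ± 0.09 (adjusted p = 0.000411) in WT cells, changed by 0.04 ± 0.09 (adjusted p = 0.779) in KO cells, and the difference of changes was 0.65 ± 0.13 (adjusted p = 0.0188). At day 0 it was lower in KO than in WT cells by 0.44 ± 0.09 (adjusted p = 0.0129). The difference of changes was lost when WT day 0 array 3 was left out (adjusted p = 0.0504), and the day 0 call when KO day 0 array 3 or WT day 0 array 3 was left out (adjusted p between 0.0591 and 0.0676).

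In KO cells Col8a1 had levels of 9.09, 9.41 and 9.05 at day 4 and 8.94, 8.91 and 8.97 at day 0. In WT cells Col8a1 had 8.70, 10.05 and 9.47 at day 4 and 9.90, 9.86 and 10.03 at day 0. The WT day 4 arrays spread from the lowest to the highest of all 12, and no other group spread as widely. At day 0 Col8a1 was lower in KO than in WT cells by 0.99 ± 0.24 (adjusted p = 0.0292), a call lost when KO day 0 array 1, 2 or 3 or WT day 0 array 1, 2 or 3 was left out, with all probe sets tested and with a trended robust prior (adjusted p between 0.0729 and 0.111). The changes were 0.24 ± 0.24 (adjusted p = 0.501) in KO and -0.52 ± 0.24 (adjusted p = 0.15) in WT cells, with a difference of 0.76 ± 0.34 (adjusted p = 0.24). The WT change passed when WT day 4 array 2 was left out (adjusted p = 0.00536), the difference of changes when WT day 4 array 2 was left out (adjusted p = 0.0339), and the day 4 difference between genotypes, -0.22 with all arrays, when WT day 4 array 1 was left out (adjusted p = 0.0139). In KO cells Col10a1 had levels of 4.79, 4.89 and 4.53 at day 4 and 5.73, 5.56 and 5.78 at day 0. In WT cells Col10a1 had 4.71, 5.04 and 5.08 at day 4 and 5.77, 5.84 and 6.33 at day 0. All day 4 arrays lay below all day 0 arrays, and Col10a1 fell 1.94-fold in KO (-0.96 ± 0.15, adjusted p = 0.00038) and 2.05-fold in WT cells (-1.04 ± 0.15, adjusted p = 0.000281).

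The multiplexins are basement membrane proteoglycans, and the end of the Col18a1 chain can be released as endostatin. In KO cells Col18a1 had levels of 5.68, 6.04 and 5.63 at day 4 and 6.68, 6.58 and 6.58 at day 0. In WT cells Col18a1 had 6.33, 5.75 and 5.72 at day 4 and 6.50, 6.79 and 6.47 at day 0. Day 4 lay below day 0 in both genotypes, and WT day 4 array 1 was the highest of the day 4 arrays. Col18a1 fell by 0.83 ± 0.16 (adjusted p = 0.00148) in KO and by 0.65 ± 0.16 (adjusted p = 0.00913) in WT cells. In KO cells Col15a1 had levels of 4.89, 5.02 and 4.78 at day 4 and 4.82, 4.75 and 4.67 at day 0. In WT cells Col15a1 had 5.11, 5.40 and 5.27 at day 4 and 5.33, 5.67 and 5.03 at day 0. At day 0 all KO arrays lay below the WT arrays, by 0.59 ± 0.14 (adjusted p = 0.0221), a call lost when KO day 0 array 1, 2 or 3 or WT day 0 array 1 or 2 was left out and with all probe sets tested (adjusted p between 0.054 and 0.0935). The day 4 difference was -0.36 ± 0.14 (adjusted p = 0.0821), and it passed when WT day 4 array 1 or WT day 0 array 2 or 3 was left out and with the replicate number as a block (adjusted p between 0.0348 and 0.0466).

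The largest fall of a chain over time in either genotype, and the largest rise in KO cells, belonged to the remaining class. Col7a1 forms the anchoring fibrils that hold epidermis to dermis, and Col28a1 is a chain with von Willebrand factor A domains described mainly in the peripheral nervous system. Their RefSeq windows (GRCm38.p6, 250 bases before to 50 after the start) are shown as those of the 2 chains that moved most in KO cells: Col7a1 at chr9:108953336-108953635 (plus strand) and Col28a1 at chr6:8192568-8192867 (minus strand). Capitals mark CCAAT or GGGCGG on either strand.
Col7a1: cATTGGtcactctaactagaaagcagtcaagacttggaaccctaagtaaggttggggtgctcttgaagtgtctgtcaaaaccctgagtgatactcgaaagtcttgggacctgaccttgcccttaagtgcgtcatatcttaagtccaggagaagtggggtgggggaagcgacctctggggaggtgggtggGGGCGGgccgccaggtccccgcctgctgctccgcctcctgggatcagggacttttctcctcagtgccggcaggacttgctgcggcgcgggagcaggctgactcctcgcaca
Col28a1: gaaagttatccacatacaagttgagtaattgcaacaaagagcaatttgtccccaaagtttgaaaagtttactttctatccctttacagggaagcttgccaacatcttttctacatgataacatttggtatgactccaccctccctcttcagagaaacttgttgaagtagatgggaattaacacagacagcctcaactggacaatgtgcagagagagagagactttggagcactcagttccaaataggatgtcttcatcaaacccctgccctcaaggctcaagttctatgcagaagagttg

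The Col7a1 window held 1 CCAAT and 1 GGGCGG, and in the Col28a1 window neither string of letters was found. In KO cells Col7a1 had levels of 5.16, 5.60 and 5.28 at day 4 and 6.81, 6.68 and 6.78 at day 0. In WT cells Col7a1 had 5.01, 5.01 and 5.24 at day 4 and 6.47, 6.38 and 6.14 at day 0. The day 4 arrays lay below all day 0 arrays, and Col7a1 fell 2.66-fold in KO (-1.41 ± 0.12, adjusted p = 3.8e-06) and 2.37-fold in WT cells (-1.24 ± 0.12, adjusted p = 1.16e-05). Its day 0 difference between genotypes was 0.43 ± 0.12 (adjusted p = 0.0613), and it passed when KO day 4 array 2 or WT day 4 array 1 was left out, with arrays centred on their medians, with array weights, and in a fit to the compared groups alone (adjusted p between 0.0129 and 0.0476). In KO cells Col28a1 had levels of 5.41, 5.64 and 5.23 at day 4 and 4.20, 3.93 and 4.15 at day 0. In WT cells Col28a1 had 5.43, 5.52 and 5.43 at day 4 and 4.49, 4.61 and 4.54 at day 0. All day 4 arrays lay above all day 0 arrays, and Col28a1 rose 2.52-fold in KO (1.34 ± 0.10, adjusted p = 1.96e-06) and 1.89-fold in WT cells (0.92 ± 0.10, adjusted p = 4.21e-05). At day 0 it was lower in KO than in WT cells by 0.45 ± 0.10 (adjusted p = 0.0218), a call lost when KO day 0 array 2 or 3 or WT day 0 array 1, 2 or 3 was left out and with all probe sets tested (adjusted p between 0.0525 and 0.109), and the difference of changes was 0.42 ± 0.15 (adjusted p = 0.138). Col26a1 changed by 0.25 ± 0.09 (adjusted p = 0.0654) in KO and 0.21 ± 0.09 (adjusted p = 0.145) in WT cells, and it passed in KO cells when WT day 4 array 1 was left out, with array weights and in a fit to the compared groups alone (adjusted p between 0.0256 and 0.0449) and in WT cells when WT day 4 array 1 was left out and with array weights (adjusted p between 0.022 and 0.0323).

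The 4 transmembrane collagens, Col13a1, Col17a1, Col23a1 and Col25a1, sit in the cell membrane of epithelial, neural and other cells. Their changes lay between -0.31 and -0.06 in KO and between -0.24 and 0.09 in WT cells. The smallest adjusted p among these was 0.112, for Col23a1 in KO cells. Col23a1 passed in KO cells when WT day 4 array 1 was left out, with arrays centred on their medians and in a fit to the compared groups alone (adjusted p between 0.0376 and 0.048) and in WT cells when WT day 4 array 1 was left out (adjusted p = 0.0408).

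Between genotypes, most of the chains that differed at day 0 were lower in KO cells. At day 0, 11 of the 44 chains passed (25%, against 5.6% of all genes), of which 10 were lower and 1 higher in KO than in WT cells, where 3.12% of all genes were lower and 2.48% higher. The 10 lower chains were Col2a1, Col4a1, Col4a2, Col6a2, Col6a3, Col14a1, Col8a1, Col8a2, Col15a1 and Col28a1, and the higher one was Col24a1. At day 4, 7 chains passed (15.9%, against 20.7% of all genes), of which 4 were lower (Col2a1, Col3a1, Col6a6 and Col14a1) and 3 higher (Col24a1, Col4a5 and Col4a6), where 12.4% of all genes were lower and 8.34% higher. The share of chains that differed at day 4 was thus not above that of all genes. The medians of the 44 chains were -0.03 at day 4 and -0.12 at day 0, beside 0.00 for all genes at either day. Leaving out 1 array moved the day 4 median to between -0.07 (KO day 4 array 2) and 0.0025 (WT day 4 array 1), and the day 0 median was -0.08 when WT day 0 array 2 was left out.

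The day 0 count depended on the arrays used. Leaving out 1 of the KO day 0 arrays gave 7, 6 and 6 chains for arrays 1, 2 and 3, and leaving out 1 of the WT day 0 arrays gave 7, 6 and 7. In these fits 3.47% to 3.72% of all genes passed, so the share of all genes fell too. The fit to the compared groups alone gave 17 chains, against 11.1% of all genes. The day 4 count was 4 without KO day 4 array 1, against 15.8% of all genes, and 4 in the fit to the compared groups alone, against 8.67%.

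Markers of several cell types also differed between genotypes, where 20.7% of all genes passed at day 4 and 5.6% at day 0. All 5 macrophage markers were lower in KO cells at both days, with differences of -1.99 at day 4 and -1.95 at day 0 for Adgre1 and of -1.63 at day 4 and -1.27 at day 0 for Cd68 (KO minus WT). Of the 5 keratinocyte and epithelial markers, 3 were lower in KO cells at day 4 (60%) and 2 at day 0 (40%). Of the 7 fibroblast markers, 2 were higher and 2 lower in KO cells at day 4 (57.1%), and 3 were higher at day 0 (42.9%). Of the 5 myofibroblast and smooth muscle markers, none passed at day 4 and 1 was lower in KO cells at day 0, where all 5 differences were negative with a median of -0.51. Of the chondrocyte markers, 1 was higher and 1 lower at day 4 (25%, close to the share of all genes) and 1 was lower at day 0 (12.5%). At day 0 1 osteoblast marker was higher and 1 endothelial marker lower, and no skeletal muscle marker passed at either day. The part of these markers in the differences of collagen chains was not tested.

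**Figure D4:**
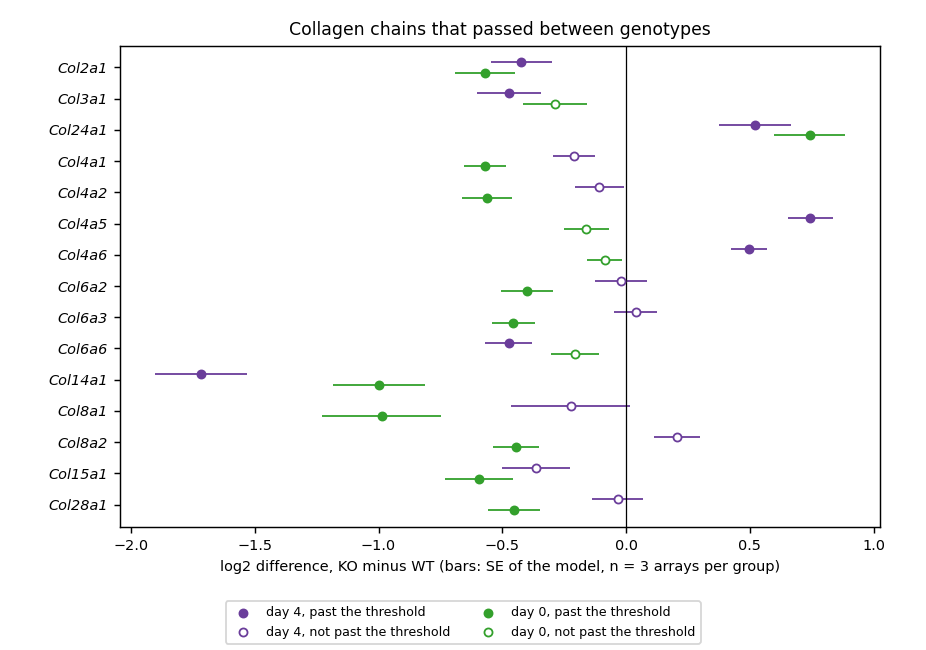
Difference of level between KO and WT cells (x axis: log2, KO minus WT) for the 15 chains that passed the test at day 4 (purple, upper point) or day 0 (green, lower point). Bars are the SE of the model with 3 arrays per group, and filled points passed. Col14a1 lies farthest left at both days, Col24a1 lies right of 0 at both, and Col4a5 and Col4a6 lie right of 0 at day 4 and slightly left of 0, not past the test, at day 0.

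The day 4 change differed between genotypes for 4 of the 44 chains (9.09%, against 3.95% of all genes). All 4 had the larger value in KO cells, as did 2.15% of all genes, while 1.81% passed in the other direction. Col4a5 and Col4a6 rose in KO cells and did not pass in WT cells. Col8a2 and Col6a3 fell in WT cells, where Col8a2 changed by 0.04 and Col6a3 by -0.29 in KO cells. The median difference over the 44 chains was 0.10, beside -0.01 for all genes, and it was 0.05 when KO day 4 array 2 was left out and 0.16 when WT day 0 array 3 was. Without WT day 4 array 1 the count was 7, with 6 above and 1 below 0, against 9.65% of all genes, and without WT day 0 array 3 it was 2, against 2.18%.

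Some chain genes are neighbours on a chromosome, and their changes are set side by side here. RefSeq places 15 of the chains beside another chain, in 8 pairs of neighbours. Col3a1 and Col5a2 lie next to each other on chromosome 1, and their day 4 changes were -0.06 and -0.88 in KO and 0.12 and -1.10 in WT cells. Col6a1 and Col6a2 neighbour each other on chromosome 10 and had changes of -0.15 and -0.37 in KO and -0.41 and -0.76 in WT cells. Col6a4, Col6a5 and Col6a6 follow each other on chromosome 9, and of these Col6a6 alone rose, in WT cells.

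Genes that modify, export, cross-link and bind collagen were examined beside the chains. Of 14 genes measured for prolyl and lysyl modification, 2 rose and 6 fell in KO, and 2 rose and 2 fell in WT cells at day 4, with median changes of -0.23 in KO and -0.21 in WT cells. The share past the test was 57.1% in KO (30.8% of all genes) and 28.6% in WT cells, not far from the 22.9% of all genes. When WT day 4 array 1 was left out, 7 genes passed in WT cells (23% of all genes). In KO cells 4 or 5 passed when any KO array except day 4 array 2 was left out (25% to 26.5% of all genes). P3h1, a prolyl 3-hydroxylase, fell by 0.67 ± 0.08 (adjusted p = 4.29e-05) in KO and by 0.43 ± 0.08 (adjusted p = 0.00148) in WT cells. P4ha3, a subunit of prolyl 4-hydroxylase, fell by 1.25 ± 0.25 (adjusted p = 0.00221) in KO and by 1.52 ± 0.25 (adjusted p = 0.00073) in WT cells. P3h2, a prolyl 3-hydroxylase that acts on basement membrane collagen, went in opposite directions: it fell by 0.36 ± 0.11 (adjusted p = 0.0268) in KO cells and rose by 0.85 ± 0.11 in WT cells (adjusted p = 0.000131), a difference of -1.21 ± 0.16 (adjusted p = 0.00232). At day 0 P3h2 was higher in KO than in WT cells (1.14 ± 0.11, adjusted p = 7.72e-05). At day 4, 3 genes of this list were higher in KO than in WT cells, P4ha1 (0.81 ± 0.19, adjusted p = 0.00999), Plod2 (0.67 ± 0.16, adjusted p = 0.00908), which makes the hydroxylysine of stable cross-links, and P4ha2 (1.02 ± 0.29, adjusted p = 0.0254), while P3h1 was lower (-0.49 ± 0.08, adjusted p = 0.0012).

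Of 9 genes for folding and export, 6 fell and 1 rose in KO, and 7 fell in WT cells, with median changes of -0.75 in KO and -0.53 in WT cells. That is 77.8% in each genotype, against 30.8% of all genes in KO and 22.9% in WT cells. Serpinh1, the collagen chaperone HSP47, fell by 0.54 ± 0.08 (adjusted p = 0.000189) in KO and by 0.34 ± 0.08 (adjusted p = 0.00596) in WT cells. Creb3l1, a transcription factor of secretory cells, fell 3.62-fold in KO (-1.85 ± 0.19, adjusted p = 1.69e-05) and 2.58-fold in WT cells (-1.37 ± 0.19, adjusted p = 0.000201). Sec23a and Sec24d, coat proteins of export vesicles, fell by 0.77 ± 0.09 (adjusted p = 3.55e-05) and 0.95 ± 0.13 (adjusted p = 0.000126) in KO and by 0.65 ± 0.09 (adjusted p = 0.000168) and 0.93 ± 0.13 (adjusted p = 0.000182) in WT cells. Tmem38b, a cation channel of the endoplasmic reticulum, rose by 0.91 ± 0.11 in KO cells (adjusted p = 3.99e-05), beside 0.20 ± 0.11 (adjusted p = 0.231) in WT cells, and the changes differed (0.71 ± 0.15, adjusted p = 0.0227). It alone of the list passed this test (11.1%, against 3.95% of all genes). The call was lost when KO day 0 array 1 or 3, WT day 4 array 3, or WT day 0 array 1, 2 or 3 was left out. In these fits 1.78% to 2.45% of all genes passed.

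Of 11 genes for propeptide removal and cross-linking, 5 fell and 1 rose in KO, and 7 fell and 1 rose in WT cells, with median changes of -0.22 in KO and -0.39 in WT cells. These are 54.5% in KO and 72.7% in WT cells, against 30.8% of all genes in KO and 22.9% in WT cells. Tll1 and Bmp1, proteases that remove the carboxy-terminal propeptide, fell by 1.51 ± 0.15 (adjusted p = 1.14e-05) and 0.70 ± 0.09 (adjusted p = 8.41e-05) in KO and by 1.12 ± 0.15 (adjusted p = 0.000127) and 0.39 ± 0.09 (adjusted p = 0.0065) in WT cells. Pcolce2, an enhancer of that cleavage, rose by 0.49 ± 0.10 in KO (adjusted p = 0.00194) and 1.05 ± 0.10 in WT cells (adjusted p = 8.09e-06), with a difference of -0.57 ± 0.14 (adjusted p = 0.0378). The lysyl oxidases Loxl3 and Loxl4 also differed. Loxl3 fell by 0.90 ± 0.14 (adjusted p = 0.00029) in KO and by 1.72 ± 0.14 (adjusted p = 2.52e-06) in WT cells, a difference of 0.82 ± 0.19 (adjusted p = 0.035). Loxl4 changed by 0.13 ± 0.09 (adjusted p = 0.323) in KO cells and fell by 0.94 ± 0.09 (adjusted p = 1.06e-05) in WT cells, a difference of 1.07 ± 0.13 (adjusted p = 0.00125). The difference of changes thus passed for 3 of the 11 genes (27.3%, against 3.95% of all genes). Only 1 gene passed, with a positive difference, when any day 0 array or WT day 4 array 2 or 3 was left out. In these fits the Pcolce2 call was lost, with that of Loxl3, Loxl4 or both, and 1.78% to 3.66% of all genes passed.

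Of 9 collagen receptors, 1 rose and 1 fell in KO, and 1 rose and 3 fell in WT cells, with median changes of -0.09 in KO and -0.25 in WT cells. The share past the test, 22.2%, was below that of all genes (30.8%) in KO cells, and in WT cells it was 44.4%, against 22.9%. The KO count was 1 when KO day 4 array 3 was left out (26.5% of all genes) and 4 when WT day 4 array 2 was (30.7%). The WT count was 2 when WT day 4 array 3 (19.3% of all genes) or WT day 0 array 2 (17.9%) was left out. Itga1, the integrin subunit that prefers basement membrane collagen, rose by 0.95 ± 0.22 in KO cells (adjusted p = 0.00445) and changed by -0.53 ± 0.22 (adjusted p = 0.103) in WT cells, a difference of 1.48 ± 0.31 (adjusted p = 0.0196). Itga2, a subunit that prefers fibrillar collagen, changed by -0.31 ± 0.13 (adjusted p = 0.0928) in KO cells and rose by 0.45 ± 0.13 in WT cells (adjusted p = 0.0231), a difference of -0.75 ± 0.18 (adjusted p = 0.0376). The difference of changes thus passed for 22.2% of the list, against 3.95% of all genes. The Itga2 call was lost when any KO array or any WT day 0 array was left out. No receptor passed this test without KO day 0 array 2 or 3 or WT day 0 array 3. In these fits 1.78% to 4.59% of all genes passed. Itgb1, the common partner of Itga1 and Itga2, fell by 0.45 ± 0.13 (adjusted p = 0.0148) in KO and by 0.96 ± 0.13 (adjusted p = 0.00011) in WT cells. Itga11, the fibril receptor of fibroblasts, fell by 2.43 ± 0.36 (adjusted p = 0.000318) in WT cells and changed by -0.99 ± 0.36 (adjusted p = 0.0547) in KO cells. Lair1, a receptor of leukocytes, was lower in KO than in WT cells at day 4 (-0.54 ± 0.08, adjusted p = 0.00072), as were the macrophage markers. At day 0 its difference was -0.50 ± 0.08 (adjusted p = 0.0026).

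Between genotypes at day 4, 3 genes of the modification list were higher and 1 lower in KO than in WT cells, as given above. Of the folding and export list, Tmem38b was higher (0.52 ± 0.11, adjusted p = 0.00472), and Mia3 and Serpinh1 were lower (-0.38 ± 0.13, adjusted p = 0.0472 for Mia3, -0.27 ± 0.08, adjusted p = 0.0283 for Serpinh1). Of the trimming and cross-linking list, 2 were higher, Loxl3 (1.18 ± 0.14, adjusted p = 0.000172) and Loxl4 (0.76 ± 0.09, adjusted p = 0.000186), and 3 were lower, Pcolce2, Tll1 and Pcolce. Of the receptors, Ddr1, a receptor tyrosine kinase for collagen, was higher (0.31 ± 0.09, adjusted p = 0.027) and Lair1 lower. The shares past the test at day 4 were 28.6%, 33.3%, 45.5% and 22.2% for the 4 lists in this order, against 20.7% of all genes. Leaving out single arrays of day 4 changed 3 of these counts by more than 1.5 times. The folding and export count was 1 without KO array 1, KO array 3 or WT array 2 and 5 without KO array 2, the trimming and cross-linking count 3 without KO array 1, KO array 3 or WT array 3, and the receptor count 1 without KO array 3 or WT array 3. In these fits 13.3% to 18.1% of all genes passed. At day 0 the genes of these lists that passed were P3h2, higher in KO cells, and Itga1 and Lair1, lower in KO cells (-1.16 ± 0.22, adjusted p = 0.00607 for Itga1). The shares past the test at day 0 were 7.14%, 0%, 0% and 22.2% for the 4 lists in the same order, against 5.6% of all genes. The day 0 count of the modification list was 3 when WT day 4 array 1 was left out (8.73% of all genes). That of the trimming and cross-linking list was 1 when KO day 4 array 2 was left out (5.74%).

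**Figure D5:**
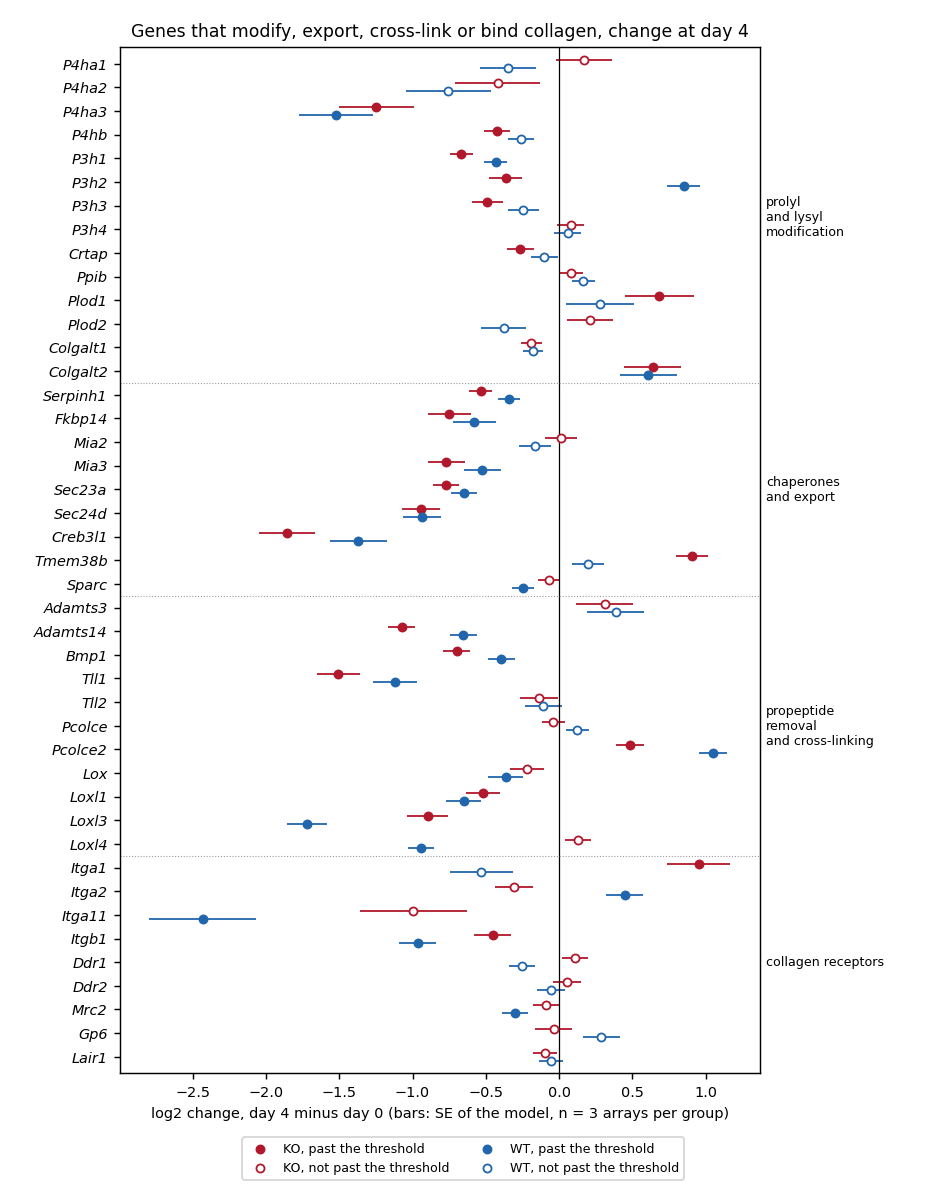
Change at day 4 (x axis: log2 level at day 4 minus day 0) of the genes that modify, export, cross-link or bind collagen, for KO (red, upper point) and WT cells (blue, lower point). Bars are the SE of the model with 3 arrays per group, filled points passed the test and open points did not. The genes for folding and export lie left of 0 in both genotypes, except Tmem38b, at 0.91 in KO and 0.20 in WT cells, and Mia2, at 0.01 and not past the test in KO cells. P3h2, Loxl4 and Itga1 show points far apart between genotypes.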

How the data were processed

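Total RNA of the 12 samples was made into biotin-labelled cDNA for 1-colour Affymetrix arrays. The deposited values are log2 probe-set levels, from 1.33 to 13.35; they were made with Affymetrix Expression Console, per the submitters' processing notes. The sources used here do not state its background, normalization and summary methods. No further normalization was applied. The table had 41345 probe sets and 0 columns of other samples. Of these, 23521 had 1 gene symbol, 1814 several and 16010 none in GEO's platform annotation, and those with 1 symbol gave 22180 genes, each read at its probe set of highest mean. The 44 chains had 47 such probe sets and 1 more with several symbols, which was left out. Arrays carry no depth, and their number limits the precision.

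The 4 group means were fitted with limma 3.58.1 in R 4.3.3 over all 12 arrays, with no covariate (8 residual degrees of freedom, 4.56 from the prior), in 5 two-sided comparisons. P-values were adjusted by Benjamini-Hochberg over all genes with a threshold of 0.05. The fit was also run on simulated data with independent noise of 1 SD per gene. That simulation cannot check p-values under the wider spread of day 4 arrays or the outlying WT day 4 array 1. The median SD over genes was 0.122 in KO day 4 and 0.127 in WT day 4, against 0.086 in KO day 0 and 0.090 in WT day 0. The members and gene lists were chosen with earlier results of these data known. Values per array are given for chains that passed between genotypes or in the difference of changes, for up to 4 per class with the largest change among those that passed over time, and for chains that form 1 protein with these. Up to 4 genes per pathway list and comparison are named by smallest p. Of the list members, Plod3, Fkbp10, Adamts2, Loxl2, Itga10, Runx2, Spp1 and Krt5 were not analysed here. Alternatives were a filter at the 25th percentile (3.75), quantile normalization, median centring, averaged or all probe sets, array weights, a prior with trend and robust estimation, a replicate block, fits of only the compared groups, a 2-fold minimum and leaving out each array.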

Additional observations from a re-analysis of the deposited data

Results flagged for a closer look

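For 4 collagen chains the change at day 4 differed between genotypes by the test of the difference itself (KO minus WT, limma, adjusted over all genes). The difference was 0.90 for Col4a5 (adjusted p = 0.00336) and 0.58 for Col4a6 (adjusted p = 0.00931), neighbouring genes that rose in KO cells. It was 0.65 for Col8a2 (adjusted p = 0.0188) and 0.49 for Col6a3 (adjusted p = 0.043), which fell in WT cells by more than they changed in KO cells. In each of these 4 cases the KO change was the higher of the pair. The results were not equally stable over the 21 alternatives to the main fit. Col6a3 stayed short of the threshold in 14 of them, and Col8a2 in 2. Col4a5 and Col4a6 each did so in 1, the minimum of a 2-fold change, which none of the 4 chains met.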

How the results depend on the processing

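Over all comparisons and alternatives, 4786 results of single chains were recomputed: 4578 kept their side of the threshold, 140 lost the call and 68 gained it. The sign turned in 115 of the 4578, none of them past the test in either fit, and in 0 results that passed in one of the fits. With a minimum of a 2-fold change the chains past the test (limma) were 3 in KO and 5 in WT cells over time, 1 between genotypes at day 4, 0 at day 0 and 0 for the difference of changes. Of all genes, 3.76% in KO and 3.51% in WT cells passed with that minimum over time. Between genotypes it was 1.49% at day 4 and 1.23% at day 0, and for the difference of changes 0.807%. Without that minimum 11 chains passed at day 0 and 4 for the difference of changes. No chain reached a 2-fold difference in these comparisons at any p. Fits to the compared groups alone gave 4 chains between genotypes at day 4 (8.67% of all genes) and 17 at day 0 (11.1%). Testing all probe sets gave 7 at day 0 (3.98% of all genes). Leaving out each array in turn gave 13 to 21 chains in KO and 19 to 27 in WT cells over time, 4 to 9 between genotypes at day 4, 6 to 15 at day 0 and 2 to 7 for the difference of changes. The share of all genes past the test moved too, from 25% to 34.5% in KO and from 17.9% to 23.3% in WT cells over time. It was 13.3% to 26.7% between genotypes at day 4, 3.47% to 8.73% at day 0 and 1.78% to 9.65% for the difference of changes. The cause of these shifts was not tested, beyond the smaller number of arrays or larger number of tests that these alternatives have by construction. Arrays of the same number in different groups deviated from their group means with correlations across genes of -0.06 to 0.18. The highest, 0.18 for array 2 and 0.12 for array 3, were between KO day 4 and WT day 4, and all others lay between -0.06 and 0.01. The labels do not say whether day 4 arrays of the same number were handled together, and this was not tested. The main fit did not pair arrays by number. With the replicate number as a block, the counts were 19 in KO and 22 in WT cells over time, 8 and 11 between genotypes at day 4 and day 0, and 3 for the difference of changes. The shares of all genes in that fit were 30%, 22.2%, 19.9%, 5.32% and 3.61% in this order. Of 436 recomputed counts over the pathway lists, 82 moved by more than 1.5 times. Signal over background could not be examined, because the deposited table holds only summarised levels.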

Other observations

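Marker genes of other cell types were read beside the chains. Of 8 chondrocyte markers, 2 rose and 2 fell in KO, and 2 rose and 3 fell in WT cells at day 4. These are 50% in KO and 62.5% in WT cells, against 30.8% and 22.9% of all genes. Those that rose were Cnmd, chondromodulin (1.66 ± 0.27, adjusted p = 0.000476 in KO and 2.26 ± 0.27, adjusted p = 6.05e-05 in WT cells), and Hapln1, a link protein of cartilage (1.16 ± 0.15, adjusted p = 7.42e-05 in KO and 0.74 ± 0.15, adjusted p = 0.00277 in WT cells). Acan, the core protein of aggrecan, fell in both genotypes (-0.82 ± 0.10, adjusted p = 7.64e-05 in KO and -1.60 ± 0.10, adjusted p = 7.02e-07 in WT cells), and Sox9, a transcription factor of cartilage, fell by 1.32 ± 0.12 (adjusted p = 6.36e-06) in KO and by 0.73 ± 0.12 (adjusted p = 0.000686) in WT cells. The change of Acan differed between genotypes (0.79 ± 0.15, adjusted p = 0.0132). Matn3 fell by 0.39 ± 0.12 (adjusted p = 0.0282) in WT cells. The mean of the 8 genes per array was 4.86 to 4.93 in KO day 4 against 4.80 to 4.82 in KO day 0, and 4.93 to 4.99 in WT day 4 against 4.85 to 4.97 in WT day 0 cells. Of these 8 genes, 2 had a mean level below the 25th percentile of all genes.

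Of 4 osteoblast markers measured, Sp7 fell in both genotypes (-0.69 ± 0.11, adjusted p = 0.000391 in KO and -0.57 ± 0.11, adjusted p = 0.00209 in WT cells) and Alpl rose in WT cells (0.52 ± 0.15, adjusted p = 0.028). Of 5 endothelial markers, Emcn and Kdr fell in both genotypes, and the change of Emcn differed between them (1.36 ± 0.14, adjusted p = 0.000546). Of 5 keratinocyte and epithelial markers, Krt14 rose by 0.67 ± 0.17 in KO (adjusted p = 0.00938) and 1.51 ± 0.17 in WT cells (adjusted p = 3.9e-05) and was lower in KO than in WT cells at day 4 (-1.27 ± 0.17, adjusted p = 0.000385). Krt18 fell in both genotypes, and Krt8 and Cdh1 rose in WT cells. Of 5 skeletal muscle markers, Acta1 and Des fell in both genotypes. For these lists in this order, 25%, 40%, 40% and 40% passed over time in KO cells, against 30.8% of all genes. In WT cells it was 50%, 40%, 80% and 40%, against 22.9% of all genes. A mean level below the 25th percentile of all genes was seen for 1 osteoblast marker and 1 keratinocyte and epithelial marker. It was seen for no endothelial or skeletal muscle marker.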
